A study of Homo sapiens with 4 samples.

Results

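Kinesins are motor proteins that use ATP to move along microtubules or to take them apart. One group of them, here called the mitotic kinesins, builds the spindle, moves and aligns the chromosomes and drives the last separation of the daughter cells, and its transcripts are known to accumulate as cells approach division. Another group, here called the transport kinesins, carries vesicles, mitochondria and protein complexes, above all along the processes of neurons, often with the help of kinesin light chains and cargo adaptors.

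The kinesins were taken as all protein-coding genes whose GENCODE symbol begins with KIF followed by a digit or C, together with the kinesin light chains KLC1 to KLC4, excluding the binding proteins KIFAP3 and KIFBP. This rule gave 46 of the 64252 genes in the count table. By their known functions, 14 were placed with the mitotic kinesins, 17 with the transport kinesins, 4 with the light chains and 11 with the remaining motors. A filter on low counts kept 40 of the 46 for testing, among 18779 genes. The 6 that were left out were KIF2B, KIF12, KIF19, KIF21B, KIF25 and KLC3, none of which had more than 11 counts in a library.

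Transcripts were counted by RNA-seq in SK-N-BE(2), a human neuroblastoma cell line, stably carrying a scrambled shRNA (sh-Scb, the control) or an shRNA against SAPCD2 (sh-SAPCD2), with 2 libraries per group. Both shRNAs were delivered by lentivirus and both groups of cells were selected, so viral integration and selection were common to them. The study labels its heat map of these libraries with its first SAPCD2 hairpin, and the libraries are taken as that hairpin, so a single shRNA stands behind the contrast. The labels do not say whether the 2 libraries of a group came from separate cultures, and the p-values therefore measure only the spread between these libraries.

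The libraries held 25347900 to 31850997 counts, and 3 counts, the least taken as detectable, equaled 0.0955 to 0.119 CPM (TMM-scaled counts relative to the library total). This floor covers counting error only. SAPCD2 itself had 83.6 and 82.2 CPM in the control libraries and 35.4 and 52.5 CPM in the knockdown libraries, that is 42.7% and 63.3% of the control mean. Neuroblastoma markers were at 0 in no library, with a summed level of 5233 to 5352 CPM in the control group and 7588 to 9364 CPM in the knockdown group. Summed markers of immune, Schwann, endothelial and epithelial cells did not exceed 12.997 CPM in any library. Fibroblast and mesenchymal markers summed to 383 to 460.5 CPM, with 1 or 2 of 7 at 0 in each library. Most of this sum came from THY1 (189 to 254 CPM) and TWIST1 (109 to 172 CPM). DCN had 21.8 to 30.9 CPM, and COL1A1 and COL3A1 did not exceed 4.27 and 9.27 CPM in any library. Each adjusted p below comes from the quasi-likelihood test of edgeR, adjusted by the Benjamini-Hochberg method across the 18779 genes, and a kinesin was called where it was under 0.05. Values after ± are standard errors, with 2 libraries per group.

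The following stretches of kinesin promoters are shown because a short element stood in most mitotic promoters and in few transport promoters. They are all 13 kinesin promoters with a match, and the element, like the classes, was chosen with earlier results of these data known. Each holds 30 bases of the gene's own strand, taken from the RefSeq promoters of GRCh38.p14, which span 250 bases before the annotated start and 50 bases from it onward. Capitals mark the letters of the CHR, the cell cycle genes homology region, a short element known from promoters of genes expressed late in the cell cycle. They were searched as TTTGAA or TTCGAA on both strands, so that TTCAAA is TTTGAA read on the other strand.
KIF11: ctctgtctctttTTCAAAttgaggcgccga
KIF14: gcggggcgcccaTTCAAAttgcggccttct
KIF15: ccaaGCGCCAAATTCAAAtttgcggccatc
KIF18A: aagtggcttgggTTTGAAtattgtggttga
KIF18B: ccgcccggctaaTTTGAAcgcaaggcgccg
KIF20B: tggccgccattgTTTGAATTTGAAaacggt
KIF22: ggcaccggggaaTTCGAAtgggagaggcgg
KIF4A: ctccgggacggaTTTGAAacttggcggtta
KIFC1: tggccgttggaaTTCAAAagtggcgggtgt
KIF23: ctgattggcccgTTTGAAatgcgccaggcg
KIF4B: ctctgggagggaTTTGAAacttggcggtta
KIF5B: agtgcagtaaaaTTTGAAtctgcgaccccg
KIF24: acagcgcgggcgTTCGAActggcgcttggc

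The stretches lie at chr10:92593090-92593119 (plus strand) for KIF11, chr1:200620733-200620762 (minus) for KIF14, chr3:44761747-44761776 (plus) for KIF15, chr11:28108149-28108178 (minus) for KIF18A and chr17:44947754-44947783 (minus) for KIF18B. Those of KIF20B, KIF22 and KIF4A lie on the plus strand at chr10:89701602-89701631, chr16:29790712-29790741 and chrX:70290058-70290087. Those of KIFC1 and KIF23 lie on the plus strand at chr6:33391815-33391844 and chr15:69414282-69414311, that of KIF4B on the plus strand at chr5:155013746-155013775, and those of KIF5B and KIF24 on the minus strand at chr10:32056548-32056577 and chr9:34329250-34329279. In KIF20B the letters occur back to back, so its capitals hold 2 matches. In KIF15 the capitals run together with GCGCCAAA, which is TTTGGCGC on the other strand, one of the E2F letters searched (TTTCCCGC, TTTGGCGC, TTTCGCGC or TTTGCCGC on either strand).

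Promoters were matched for 36 of the 46 kinesin genes. KIF5A, KIF13B, KIF19, KIF21B, KIF26B, KIF27, KIFC2, KIFC3, KLC2 and KLC4 were not matched. The CHR letters stood in 11 of 14 mitotic promoters (78.6%), in 1 of 12 transport promoters (8.33%, KIF5B) and in 1 of the 8 remaining motors (12.5%, KIF24). Among all 27305 promoters of the same length the share was 16.6%, and among those of protein-coding genes it was 13.5%. In all 11 mitotic genes the match lay within 60 bases before to 40 bases after the start, and so did that of KIF24. The match of KIF5B began 140 bases before the start. No share over other promoters was taken for this narrower window. The printed stretches of KIF4A and KIF4B are identical from the CHR letters onward. KIF20A, KIF2C and KIF2B had no match in the window. The E2F letters were found in 1 mitotic promoter (7.14%), in 0 of 12 transport promoters and in 1 of the 8 remaining motors (12.5%, KIF25). They stood in 3.33% of all promoters and in 4.44% of those of protein-coding genes. A match is a description of these letters only, and nothing on binding was measured.

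**Figure D1:**
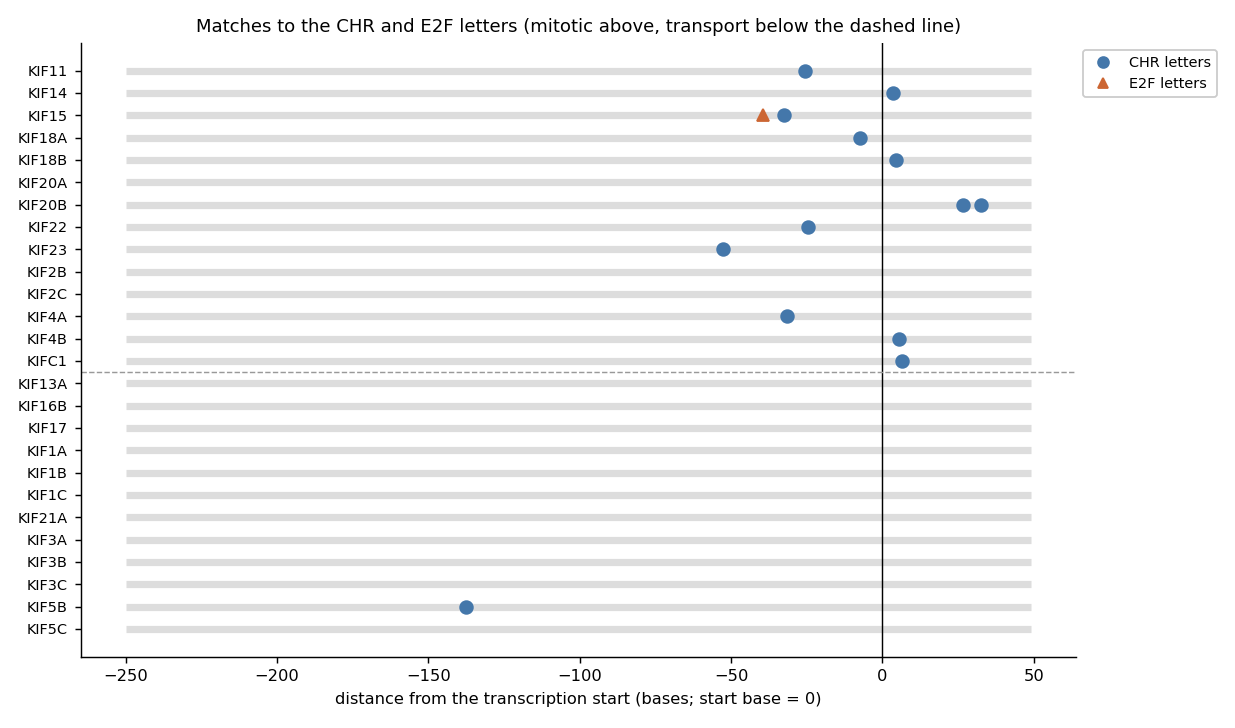
Positions of the CHR letters (circles) and E2F letters (triangle) in the RefSeq promoters of 14 mitotic kinesins (above the dashed line) and 12 transport kinesins (below it), with the distance from the start in bases on the horizontal axis (the start base is 0) and a gray bar for the 300 bases searched. The matches of 11 mitotic genes cluster near the start, and KIF5B holds the only transport match.

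After SAPCD2 knockdown the kinesin calls divided by class. Of the 40 tested kinesins, 12 were lower, 8 were higher and 20 were not called. The background of the same call over all tested genes was 12.5% lower and 12.4% higher. All 11 of the called mitotic kinesins were lower, whereas all 7 of the called transport kinesins were higher. Outside these classes the light chain KLC2 was higher and KIF24 was lower. With a log2 fold change beyond 1 as well, 9 kinesins were lower and 5 higher, against a background of 5.15% and 4.69%. Without either control library 11 were lower and 5 higher, in fits that called 5.8% to 5.81% of all genes lower and 5.92% to 6.09% higher. Without the first knockdown library 20 were lower and 11 higher, in a fit that called 20.2% of all genes lower and 22.1% higher, and kinesins not called otherwise, such as KIF2A and KIF7, were called there.

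The median log2 fold change was −1.09 over the 13 tested mitotic kinesins and 0.31 over the 16 tested transport kinesins, against 0.02 over all tested genes. The difference between these medians, −1.40, lay between −1.64 and −1.37 in every alternative fit, and it was −1.64 without the first knockdown library. All 13 tested mitotic kinesins were lower in both knockdown libraries than in both controls, a pattern that 33.4% of all tested genes showed. The classes were set with earlier results known, and this count leaves out KIF2A, a depolymerase that also acts at spindles and was placed with the remaining motors. With KIF2A counted as mitotic, an alternative chosen after seeing the data, 13 of 14 were below both controls and the median was −1.06. Of the 16 transport kinesins, 11 were above both controls in both knockdown libraries, against 33.5% of all tested genes, 2 were below and 3 overlapped. In bulk RNA, fewer cells in or near division and less RNA per cell cannot be told apart.

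**Figure D2:**
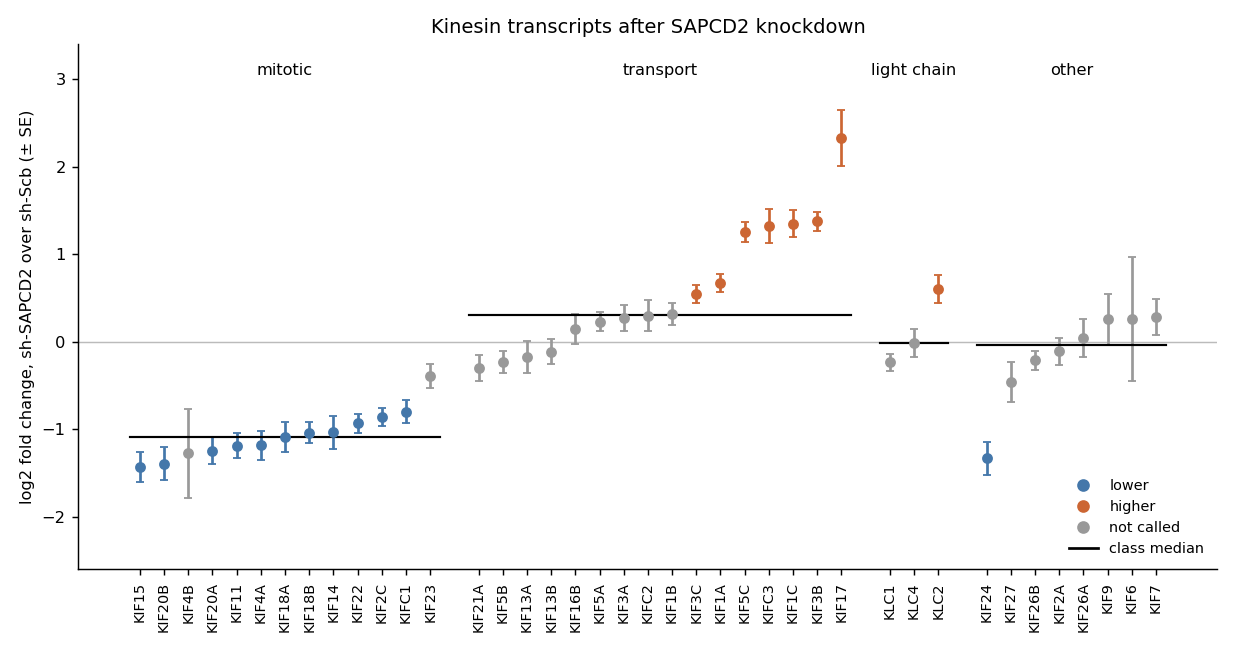
Log2 fold change (sh-SAPCD2 over sh-Scb, 2 libraries each) of the 40 tested kinesins by class, with bars for the standard error, color for the call and a black line for the class median. The mitotic points all lie below 0 with a median of −1.09, and the called transport points lie between 0.55 and 2.33.

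Among the mitotic kinesins, those that shape the spindle are described first. KIF11 (chr10:92574105-92655395, hg38), the plus-end motor that pushes the spindle poles apart, had 162 and 168 CPM in the control libraries and 81.9 and 63.2 CPM in the knockdown libraries, a log2 fold change of −1.19 ± 0.15 (SE, n = 2 per group, adjusted p = 0.00484). KIF15 (chr3:44761721-44873376), which can keep a bipolar spindle open beside KIF11, had 53.0 and 50.7 CPM against 21.9 and 16.6 CPM. Its log2 fold change of −1.43 ± 0.17 (adjusted p = 0.00438) was the lowest of the tested kinesins. Both motors thus stood at less than 45% of their control mean, KIF11 at 43.9% and KIF15 at 37.1%. In neither did the groups overlap, and 33.4% of all tested genes lay below both controls in both knockdown libraries.

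KIFC1, a minus-end motor that focuses spindle poles, was lower by a smaller amount, with 35.6 and 34.5 CPM in the controls and 19.0 and 21.3 CPM after knockdown (log2 fold change −0.80 ± 0.13, adjusted p = 0.0108). This call depended on both control libraries, since the adjusted p was 0.0748 without the first and 0.0558 without the second. KIF2C, which removes tubulin from microtubule ends at centromeres, had 107 and 104 CPM against 58.4 and 58.0 CPM (−0.85 ± 0.10, adjusted p = 0.00457). The knockdown libraries were closest to each other in KIF2C among the called mitotic kinesins.

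All 3 motors of chromosome position were lower. KIF18A, which limits the swings of chromosomes at the metaphase plate, had 42.8 and 41.3 CPM in the controls and 22.6 and 16.9 CPM after knockdown (−1.09 ± 0.17, adjusted p = 0.00894). Its relative KIF18B, which acts on astral microtubules, had 91.3 and 88.6 CPM against 40.8 and 46.6 CPM (−1.04 ± 0.12, adjusted p = 0.00417). KIF22, a chromosome-bound motor that pushes chromosome arms toward the spindle equator, had 154 CPM in each control and 76.2 and 85.6 CPM after knockdown (−0.93 ± 0.11, adjusted p = 0.00429). KIF22 was the most abundant mitotic kinesin per length, at 74.0 CPM per kb of canonical transcript in the controls and 38.9 CPM per kb after knockdown.

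The motors of the central spindle and of cytokinesis ranged from a log2 fold change of −1.39 to one of −0.39. KIF20A (chr5:138178719-138187723), which brings the chromosomal passenger complex to the central spindle, had 187 and 188 CPM in the controls and 90.9 and 67.5 CPM after knockdown (−1.25 ± 0.16, adjusted p = 0.00514). KIF20B, which takes part in the completion of cytokinesis, had 94.7 and 101.4 CPM against 44.2 and 30.6 CPM (−1.39 ± 0.19, adjusted p = 0.00593). KIF4A, which stops the growth of midzone microtubules together with PRC1, had 89.2 and 87.7 CPM against 45.0 and 33.0 CPM (−1.18 ± 0.17, adjusted p = 0.00659). In all 3 motors the second knockdown library was the lowest of the 4 libraries.

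KIF14, which works with citron kinase at the midbody, had 76.5 and 77.3 CPM in the controls and 44.5 and 30.6 CPM after knockdown (−1.03 ± 0.19, adjusted p = 0.0133), and its adjusted p was 0.0539 when no filter on low counts was applied. KIF23, the motor of the centralspindlin complex, was not called, with 93.3 and 98.5 CPM against 80.5 and 65.8 CPM (−0.39 ± 0.13, adjusted p = 0.0773). It was called lower without either knockdown library, with adjusted p of 0.00187 without the first and 0.0225 without the second. KIF23 was thus the least changed of the tested mitotic kinesins. The CHR letters stand in its promoter, and they are absent from the promoters of KIF20A and KIF2C, which were called lower. A link between the letters and the calls was not tested.

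KIF4B, an intronless relative of KIF4A, had 0.615 and 0.509 CPM in the controls and 0.237 and 0.223 CPM after knockdown, from no more than 17 counts, and was not called (−1.28 ± 0.51, adjusted p = 0.119). Its canonical transcript shares 27.7% of its stretches of 31 bases with that of KIF4A, so reads of one could be counted for the other. KIF2B had no count in any library.

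**Figure D3:**
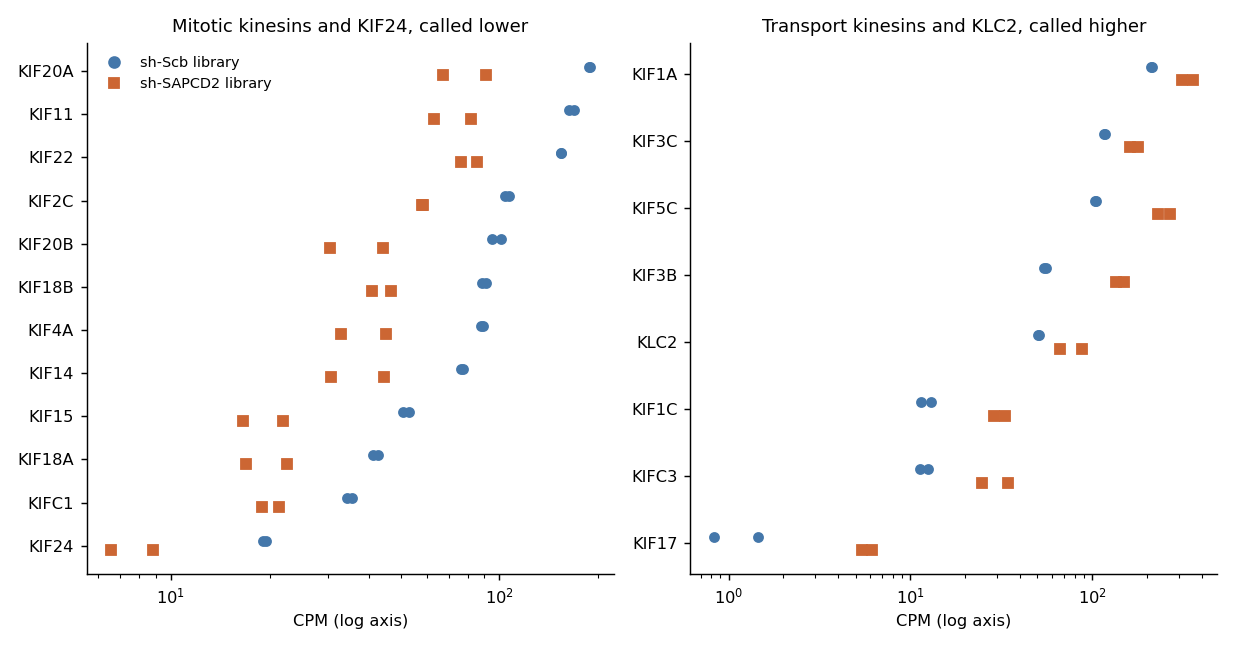
CPM on a log axis of the 12 kinesins that were lower (left) and the 8 that were higher (right), with circles for the sh-Scb libraries and squares for the sh-SAPCD2 libraries. The 20 genes were chosen by their calls in these same libraries, so the lack of overlap between their groups largely follows from that choice. Of all tested genes, 33.4% lay below and 33.5% above both controls in both knockdown libraries. In most genes on the left the squares lie farther apart than the circles.

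The partners of the mitotic kinesins were lower too. Of 18 genes that bind, load or act beside these motors, 17 were lower (94.4%, against 12.5% of all tested genes) and 0 higher, with a median log2 fold change of −0.84. RACGAP1, the binding partner of KIF23 in centralspindlin, had 166 and 159 CPM in the controls and 94.0 and 84.6 CPM after knockdown (−0.86 ± 0.11, adjusted p = 0.00502), a larger fall than the value of KIF23 itself. CIT, the citron kinase that KIF14 binds, had 110.4 and 107 CPM against 45.7 and 40.5 CPM (−1.33 ± 0.12, adjusted p = 0.00263). PRC1, the microtubule bundler that recruits KIF4A, had a log2 fold change of −0.84 ± 0.12 (adjusted p = 0.00689), and TPX2, which targets KIF11 and KIF15 to spindle microtubules, one of −0.75 ± 0.13 (adjusted p = 0.0112).

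CENPE is a kinesin by its protein and carries chromosomes to the spindle equator, but its symbol keeps it outside the family as chosen here. It had 144 and 159 CPM in the controls and 71.7 and 38.5 CPM after knockdown (−1.46 ± 0.28, adjusted p = 0.0153). Its level after knockdown varied between libraries more than that of any called mitotic kinesin. The count of called partners fell to 10 without a filter on low counts, in a fit that called 3.38% of all genes lower. It also fell without either control library, in fits that called fewer of all genes.

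General proliferation markers moved in the same direction. Of 6 markers, 5 were lower (83.3%, against 12.5% of all tested genes), with a median log2 fold change of −0.70. TOP2A (−1.40 ± 0.14, adjusted p = 0.00321) and MKI67 (−1.34 ± 0.17, adjusted p = 0.00503) were among the lower ones. The summed level of all 6 markers was 2080.0 and 2125 CPM in the controls and 1027 and 819.7 CPM after knockdown. Fewer of the 6 were called without either control library, in fits that also called fewer of all genes. The part of the proliferating share of cells in the mitotic kinesin values was not tested.

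Transport kinesins with higher transcripts came from the families of kinesin-1, kinesin-2, kinesin-3 and kinesin-14. In kinesin-2, the heterotrimeric motor of intraflagellar and axonal transport, all 4 members had higher values in both knockdown libraries and 3 were called. Of all tested genes, 33.5% lay above both controls in both knockdown libraries and 12.4% were called higher. KIF3B (chr20:32277651-32335011) had 54.4 and 55.6 CPM in the controls and 151 and 135 CPM after knockdown, a log2 fold change of 1.38 ± 0.11 (adjusted p = 0.00224), the smallest adjusted p among the kinesins. KIF3C, the neuronal alternative to KIF3B in the heterotrimer, had 116 and 117 CPM against 162 and 179 CPM (0.55 ± 0.10, adjusted p = 0.0145). KIF3C was not called without the first control library (adjusted p = 0.23) or the second (0.211).

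KIF3A, the obligate partner of both, was not called, with 49.1 and 44.7 CPM in the controls and 62.5 and 50.9 CPM after knockdown (0.27 ± 0.14, adjusted p = 0.214), and was called higher without the second knockdown library (adjusted p = 0.0166). KIF3B therefore took a larger share of the 3 KIF3 heavy chains, counted per kb of transcript, at 38.0% and 34.8% after knockdown against 23.2% and 23.9% in the controls. The adaptor subunit KIFAP3, which joins the heavy chains to cargo, had a log2 fold change of −0.13 ± 0.15 (adjusted p = 0.56). KIF17, the homodimeric kinesin-2 of dendrites and cilia, was scarce in the controls, at 0.833 and 1.45 CPM from 23 and 40 counts, and had 5.41 and 6.11 CPM after knockdown (2.33 ± 0.32, adjusted p = 0.00612). This was the largest log2 fold change of the tested kinesins, on one of the lowest control levels.

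Intraflagellar transport genes, which encode the trains that kinesin-2 moves, held more lower than higher calls. Of 24 measured members, 5 were lower (20.8%, against 12.5% of all tested genes) and 1 higher (4.17%, against 12.4%), with a median log2 fold change of −0.29. IFT52 had 36.2 and 37.5 CPM in the controls and 11.97 and 13.8 CPM after knockdown (−1.52 ± 0.14, adjusted p = 0.00312), and DYNC2I2, a chain of the returning dynein-2 motor, had 96.2 and 95.4 CPM against 20.5 and 34.1 CPM (−1.81 ± 0.24, adjusted p = 0.00573). IFT46, IFT25 and TRAF3IP1 were the other 3 lower members and IFT20 was the higher one. The count of called members was 10 with DESeq2, in a fit that called 13.7% of all genes lower and 16.7% higher. It was 14 with a correction for GC content and length, where 20.1% of all genes were lower and 22.6% higher. The count rose without either knockdown library and fell without the second control library, as did the share of all genes called.

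Kinesin-1, the main anterograde motor of axons, is built from KIF5A, KIF5B or KIF5C heavy chains. KIF5C (chr2:148875227-149026759), a neuronal heavy chain, had 106 and 104 CPM in the controls and 268 and 229 CPM after knockdown (1.25 ± 0.11, adjusted p = 0.00297). KIF5B, the ubiquitous heavy chain, was not called, with 345 and 358 CPM against 330.2 and 267 CPM (−0.24 ± 0.13, adjusted p = 0.219). KIF5A, the other neuronal heavy chain, was not called either, with 51.2 and 49.3 CPM against 59.5 and 58.4 CPM (0.23 ± 0.11, adjusted p = 0.172).

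Per kb of transcript, KIF5C made up 18.3% and 17.6% of the kinesin-1 heavy chains in the controls and 36.7% and 37.2% after knockdown, while KIF5B made up 71.0% and 72.3% in the controls and 53.5% and 51.4% after knockdown. These shares did not overlap between the groups. KIF5B still held the largest share in all 4 libraries, and KIF5A held between 9.79% and 11.4%.

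The light chains couple kinesin-1 to its cargo. KLC2 was higher, with 50.5 and 50.8 CPM in the controls and 66.2 and 87.6 CPM after knockdown (0.60 ± 0.16, adjusted p = 0.0372). The call did not hold without the first control library (adjusted p = 0.191), without the second (0.183) or without a filter on low counts (0.107). KLC1, the most abundant light chain at 66.3 CPM per kb in the controls, had 173 and 165 CPM against 141 and 146 CPM and was not called (−0.23 ± 0.10, adjusted p = 0.127), though it was called lower without either knockdown library. KLC4 had 24.3 and 22.7 CPM against 20.7 and 25.8 CPM, with overlapping groups, and KLC3 had 2 counts in all.

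In kinesin-3, the family of fast vesicle motors, KIF1A and KIF1C were called. KIF1C, a carrier of dense-core vesicles and integrins, had 12.996 and 11.5 CPM in the controls and 28.996 and 33.3 CPM after knockdown (1.35 ± 0.15, adjusted p = 0.00415). KIF1A, the carrier of synaptic vesicle precursors, had 212 CPM in each control and 314 and 361 CPM after knockdown (0.67 ± 0.11, adjusted p = 0.00963). The KIF1A call did not hold without the first control library (adjusted p = 0.103) or without the second (0.104).

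KIF1B, which carries synaptic vesicle precursors and mitochondria, had 267 and 263 CPM against 365 and 295 CPM (0.32 ± 0.13, adjusted p = 0.118) and was called higher without either knockdown library. KIF13A, KIF13B and KIF16B, which carry endosomal and membrane cargo, had log2 fold changes from −0.17 to 0.14 and were not called, and their groups overlapped. KIFC3, a minus-end motor of kinesin-14, had 11.3 and 12.5 CPM in the controls and 24.7 and 34.6 CPM after knockdown (1.32 ± 0.20, adjusted p = 0.00787). Its family member KIFC2 had 14.6 and 12.3 CPM against 15.1 and 18.0 CPM and was not called (adjusted p = 0.25).

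The most abundant transport kinesin per length was KIF21A, a kinesin-4 that curbs microtubule growth, at 119 CPM per kb in the controls. It had 732 and 780.2 CPM in the controls and 698 and 528 CPM after knockdown and was not called (−0.30 ± 0.15, adjusted p = 0.18). Without the first knockdown library KIF21A, KIF5B and KIF13A were called lower, and with the correction for GC content and length KIF21A was called lower (−0.22, adjusted p = 0.0378). The higher transport kinesins therefore did not include the most abundant member, and the class as a whole held 0 lower calls in the main comparison.

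**Figure D4:**
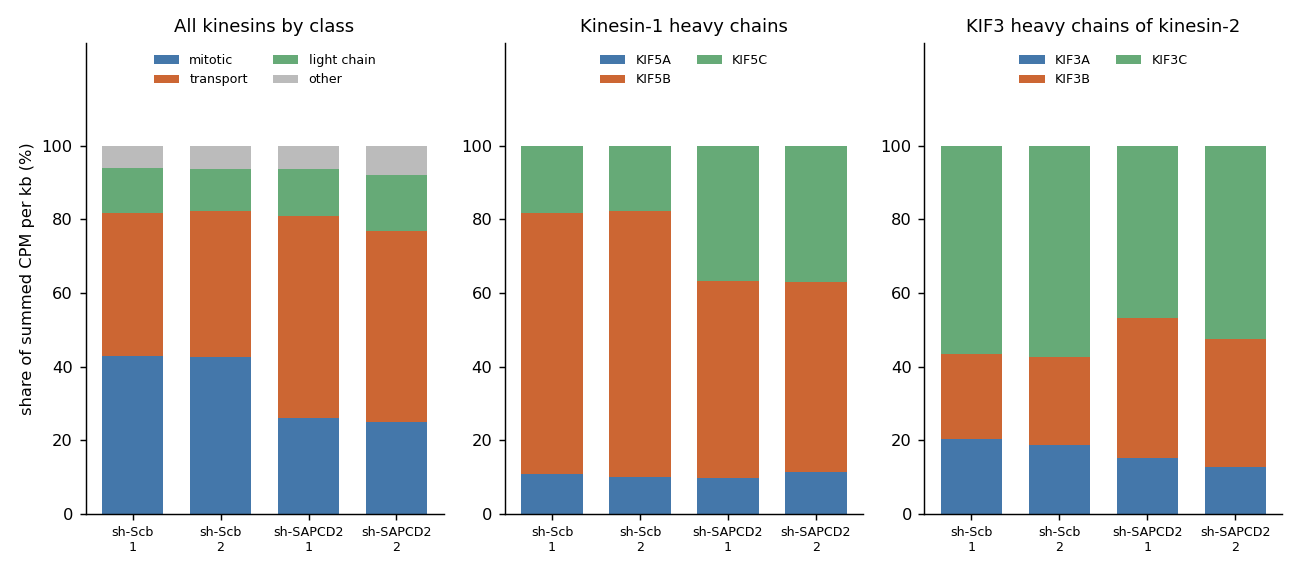
Share of the summed CPM per kb of canonical transcript in each library, for all 46 kinesins by class (left), the kinesin-1 heavy chains (middle) and the KIF3 heavy chains of kinesin-2 (right). The mitotic share is 42.9% and 42.7% in the controls and 26.0% and 24.8% after knockdown, and the KIF5C share of kinesin-1 rises from about 18% to 37%.

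Over all kinesins, per kb of transcript, the mitotic class held 42.9% and 42.7% in the controls and 26.0% and 24.8% after knockdown. The transport class held 38.8% and 39.5% in the controls and 55.0% and 51.9% after knockdown. The summed level of all kinesins was 783 and 789 CPM per kb in the controls and 682 and 640.2 CPM per kb after knockdown. Per kb the order of the classes was thus exchanged, with the mitotic class first in the controls and the transport class first after knockdown in both libraries. In CPM not divided by length the transport class was first in the controls too, at 2041 and 2086 CPM against 1187 and 1195 CPM. Per kb the transport class summed to 304 and 311 CPM in the controls and 375 and 333 CPM after knockdown. The mitotic class summed to 336 and 337 CPM per kb against 177 and 159 CPM per kb.

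Cargo adaptors of the transport kinesins, a list of 19 genes, had 4 higher members (21.1%, against 12.4% of all tested genes), 0 lower members (against 12.5%) and a median log2 fold change of 0.31. The scaffolds MAPK8IP1 (0.72 ± 0.14, adjusted p = 0.0171) and SPAG9 (0.50 ± 0.11, adjusted p = 0.0247) and the KIF5 adaptor FEZ1 (0.54 ± 0.11, adjusted p = 0.0213) were among the higher members. KIFBP, which holds several kinesins off microtubules, had a log2 fold change of −0.01 ± 0.13 (adjusted p = 0.976). The count was 11 with the correction for GC content and length. That fit called 20.1% of all genes lower and 22.6% higher. Fewer adaptors were called without either control library, in fits that also called fewer of all genes. In the main comparison, 3 of 10 neuronal markers were higher (NEFM, NEFL and MAPT), against 12.4% of all tested genes. In the same comparison 1 of the 10 was lower (STMN2), against 12.5% of all tested genes. The part of these markers in the transport kinesin values was not tested.

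Among the 11 remaining motors, 8 were tested and KIF24 alone was called. KIF24, a centriolar kinesin that restrains the outgrowth of cilia, had 19.1 and 19.5 CPM in the controls and 8.81 and 6.56 CPM after knockdown (−1.33 ± 0.19, adjusted p = 0.00684), within the range of the mitotic class. KIF26A, the most abundant of these motors per length at 19.4 CPM per kb in the controls, had 133 and 135 CPM against 106 and 169 CPM, so that the controls lay between the knockdown libraries (0.04 ± 0.21, adjusted p = 0.899). Its log2 fold change was −0.33 without the second knockdown library and 0.33 without the first, and both were called.

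KIF7, a ciliary regulator of Hedgehog signaling, had 26.1 and 28.5 CPM in the controls and 26.8 and 39.6 CPM after knockdown, with overlapping groups. KIF2A, a microtubule depolymerase of neurons and spindles, had 99.9 and 105 CPM against 109 and 81.6 CPM, again with the controls between the knockdown libraries. KIF26B and KIF27 were below both controls in both knockdown libraries without being called (adjusted p = 0.209 and 0.185), a pattern that 33.4% of all tested genes showed. KIF6 and KIF9, motors of motile cilia, were under 2.1 CPM in every library and were not called.

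The spread between the knockdown libraries followed base composition. Over the 40 tested kinesins, the difference in log2 CPM between the second and the first knockdown library had a Pearson correlation of 0.73 and a Spearman correlation of 0.85 with the GC content of the canonical transcript, across genes that share the same 2 libraries. For the control libraries the same values were 0.09 and −0.07. All 11 tested kinesins with a GC content over 57% were higher in the second knockdown library than in the first, and all 11 with a GC content under 42% were lower. The log2 fold change itself had a Pearson correlation of 0.45 and a Spearman correlation of 0.47 with GC content over the 40 kinesins. Over 17467 tested genes with a GC content, the Spearman correlation was 0.56 between the knockdown libraries and −0.06 between the controls.

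This spread ran through the mitotic class. Of its 11 called members, 8 were lower in the second knockdown library than in the first, all with a GC content up to 50.03%. The other 3, KIFC1, KIF22 and KIF18B, were higher in the second, with a GC content of 57.5% to 58.4%. With a correction of every library for GC content and length, all 20 called kinesins were still called in the same direction and the class medians were −1.08 and 0.35. That fit called 20.1% of all genes lower and 22.6% higher. Some sizes moved, with KLC2 at 0.33 in place of 0.60 and KIF1A at 0.45 in place of 0.67 on the log2 scale. SAPCD2 itself, with a GC content of 66.5%, was higher in the second knockdown library than in the first.

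**Figure D5:**
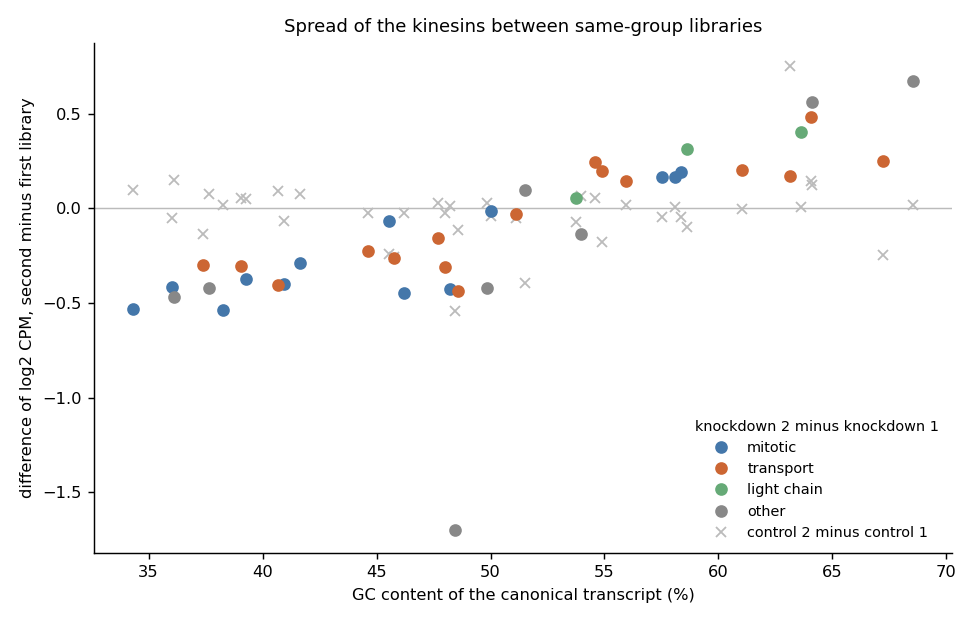
Difference in log2 CPM between the second and the first library of a group, against the GC content (%) of the canonical transcript, for the 40 tested kinesins, with filled points for the knockdown pair colored by class and gray crosses for the control pair. The filled points pass from below 0 at low GC content to above 0 at high GC content (Spearman 0.85), and the crosses do not (−0.07).

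The guide strand of the hairpin was compared with the 3′ ends of the kinesin transcripts, since a guide can also act through short seed matches. The guide arm of the hairpin is shown with its bases 2 to 8, the seed, in capitals.
guide arm: aTGAAGGTggaatccagaggt

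The 7 letters complementary to this seed stood in the 3′ UTR of 0 of 13 tested mitotic kinesins, of 1 of the 12 lower kinesins (8.33%, KIF24) and of 0 of the 8 higher kinesins, against 12.5% of 13583 tested protein-coding genes. The letters complementary to the same bases of the opposite arm stood in 0 of the 13 mitotic kinesins and in KIF24 and KIF1A among the called kinesins, against 17.6% of the protein-coding genes. Neither value bears on matches outside the 3′ UTR of the canonical transcript. The shares over protein-coding genes were not matched for 3′ UTR length, and a short 3′ UTR holds fewer places for a match. In the tested mitotic kinesins this length ran from 74 bases (KIF22) to 1888 bases (KIF14).

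Of the 20 called kinesins, 15 overlap another annotated gene of the table on the same or the opposite strand, and it is not given in the sources used here whether reads were counted by strand. KIF20A overlaps BRD8 and CDC23, KIF4A overlaps PDZD11, KIF15 overlaps TMEM42, KIF24 overlaps UBAP1 and KIF5C overlaps its antisense transcript KIF5C-AS1, and these values are uncertain to that extent. KIF14, KIF20B, KIF3B, KIF3C and KIF1A overlap no other annotated gene, and they include members of both the lower and the higher group.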

How the data were processed

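Transcripts of SK-N-BE(2) cells with sh-Scb or sh-SAPCD2 were measured by RNA-seq (2 libraries each, grouped by the shRNA in the labels). The authors used HISAT2 2.2.0 to align paired-end reads to hg38 and StringTie for abundances, and deposited whole-number counts per Ensembl gene, not scaled for library size. The step that made the counts, the annotation release, strand use and the treatment of multiply aligned reads are not given in the sources used here. Counts were TMM-scaled and tested by quasi-likelihood in edgeR 4.0.16 (R 4.3.3, filterByExpr with a minimum count of 10 and total of 15), with Benjamini-Hochberg adjustment over 18779 genes. The biological coefficient of variation was 15.4%. The study used DESeq2 and its threshold of an absolute log2 fold change over 1 is given beside the calls. DESeq2 1.42.0 was run as an alternative. The scripts were tested on simulated data.

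Positions, lengths, GC content and overlaps came from GENCODE 44, promoters from RefSeq and the hairpin from the supplementary oligonucleotide list. CPM per kb is the CPM divided by the canonical transcript's length in kb. The correction for GC content and length was a loess fit per library (span 0.3) over the 17467 tested genes matched to GENCODE. IFT56, IFT70A and IFT70B had no match in the annotation. Kinesins, classes, lists, motifs and tests were chosen with earlier results of these data known. Every kinesin could be named. Full values were given for called kinesins, the mitotic class and the most abundant member of each class. Of other genes, CENPE, TPX2, PRC1, RACGAP1, KIFAP3, KIFBP, SAPCD2 and up to 5 members of each list with the smallest p were named. The values of 1 cargo adaptor are not reported here.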

Additional observations from a re-analysis of the deposited data

How the results depend on the processing

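The direction of all 20 kinesin calls was the same in every alternative. DESeq2, its size factors in edgeR, library totals, a mean of at least 1 CPM, protein-coding genes only and the replicate block changed no kinesin's call among those tested in them. Without a filter on low counts KIF14 and KLC2 lost their call, the partners of the mitotic kinesins gave 10 calls in place of 17 and the cargo adaptors 1 in place of 4. The fit without this filter called 3.38% of all genes lower and 3.09% higher. DESeq2 gave 10 intraflagellar transport calls in place of 6, and it called 13.7% of all genes lower and 16.7% higher. With the correction for GC content and length there was 1 lower transport kinesin in place of 0, 11 cargo adaptors, 15 dynein and dynactin genes in place of 9, 14 intraflagellar transport genes and 9 neuronal markers in place of 4. The fit with this correction called 20.1% of all genes lower and 22.6% higher. In it the sign of KIF26A turned to −0.41 (adjusted p = 0.00144).

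Same-numbered libraries did not deviate together (correlation −0.02 over genes). With 2 libraries per group, and a GC-related spread in the knockdown pair alone, this value cannot show whether the numbers pair the samples. The replicate block gave 12 lower and 8 higher kinesins and 11 intraflagellar transport calls. It called 14.4% of all genes lower and 15.2% higher, and with the GC correction added 19.9% and 22.5%. The replicate block with the GC correction gave 9 cargo adaptors, 14 dynein and dynactin genes, 13 intraflagellar transport genes, 10 neuronal markers and −0.41 for KIF26A (adjusted p = 0.00103).

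With each library left out in turn, where the lone library of a group is assumed to vary like the others, lower kinesins numbered 11 to 20, higher kinesins 5 to 11, lower mitotic kinesins 10 to 12, lower transport kinesins 0 to 3 and higher ones 5 to 10. With the threshold on size, 7 to 9 were lower and 5 higher each time. Partners gave 11 to 18 calls, cargo adaptors 1 to 11, dynein and dynactin 3 to 20, intraflagellar transport 3 to 14, proliferation markers 2 to 6 and neuronal markers 1 to 9. The share of all tested genes called differed between these fits too, so a changed count is not read as a trait of its list. The difference of the class medians was −1.64 to −1.37. KIF26A turned to −0.33 without sh-SAPCD2 replicate 2 and was 0.33 without sh-SAPCD2 replicate 1. Counting KIF2A as mitotic, chosen after seeing the data, left 11 lower mitotic kinesins. The causes were not tested. Depth limits KIF4B, KIF6, KIF9 and KIF17, which had the lowest counts of the tested kinesins.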

Other observations

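Dynein carries cargo in the opposite direction to most kinesins and was tested as a list of 27 subunits and adaptors of dynein and dynactin. Of these, 6 were higher (22.2%, against 12.4% of all tested genes), 3 were lower (11.1%, against 12.5%) and 18 were not called, with a median log2 fold change of 0.03. BICD2, an adaptor that links cargo to dynein and also binds kinesin-1, had 90.2 and 88.6 CPM in the control libraries and 210 and 225 CPM in the knockdown libraries (log2 fold change 1.28 ± 0.10, adjusted p = 0.00212). NDEL1, a dynein regulator of neuronal migration, had 16.5 and 18.4 CPM against 43.3 and 42.1 CPM (1.29 ± 0.13, adjusted p = 0.0033). DYNC1I1, the neuronal intermediate chain of dynein, had 10.1 and 13.8 CPM against 31.05 and 30.9 CPM (1.37 ± 0.18, adjusted p = 0.00591). The light chain DYNLL2 was higher (0.65 ± 0.10, adjusted p = 0.00796) and the adaptor HOOK3 was lower (−0.68 ± 0.12, adjusted p = 0.012). Fewer of the 27 were called without either control library, in fits that also called fewer of all genes. NDEL1 overlaps MYH10 on the opposite strand, and HOOK3 overlaps RNF170.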
